A study of Mus musculus with 41 samples.

Results

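Melanomas collected 9 days after doxycycline was taken away were set against melanomas of mice still drinking it. The members are the tumours whose label gives 9 days off the drug (n = 3) and those whose label gives 0 days (n = 4), together 7 of the 41 tumours of the series. The remaining 34 tumours lie between 1 and 163 days off the drug and enter here through the common estimate of the spread and as single values for orientation. All 41 tumours are from mice of the iBIP strain, in which doxycycline switches on a mutant BRAF transgene in melanocytes that also lack tumour suppressor genes, so the day 9 and the day 0 tumours carry the same alleles. They differ in the drug and in the transgene together, which cannot be told apart. Each sample was a piece of frozen tumour, cut out by eye with the skin trimmed off, and its RNA was hybridised as biotin-labelled cRNA to an Affymetrix array covering the mouse genome. Whether every tumour is from its own mouse is not given in the labels, so the p-values measure the spread between these samples, which may in part be technical. Tumours are numbered within a group in accession order, and the numbers only name them.

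As background, BRAF is the kinase at the head of the MAPK cascade, in which it activates MEK and MEK activates ERK. Active ERK induces transcription factors of the ETS and AP-1 families and, as feedback, phosphatases and adaptor proteins (the Dusp, Spry and Spred genes) that damp the pathway. The RNA of these genes is widely used as a readout of the pathway's activity. Interferons act through receptors and STAT and IRF factors on a large set of genes for GTPases, antiviral enzymes, antigen presentation and chemokines, in tumour cells as well as in immune cells.

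The level of a gene is the log2 intensity of its probe set of highest mean, so 1 unit is a 2-fold difference, and each difference is day 9 minus day 0 with its standard error (SE). Of 14318 genes tested with limma, 380 (2.65%) were called higher and 273 (1.91%) lower at day 9 at a Benjamini-Hochberg adjusted p under 0.05, and the median difference over all of them was 0.029. With a difference of at least 2-fold as well, 199 (1.39%) were higher and 100 (0.698%) lower. Every day 9 value lay above every day 0 value in 1325 genes (9.25%) and below in 1147 (8.01%). Levels up to 5.67 lie at or under the filter, and the median level of an array was 6.14. The arrays of both groups share one level of the spike-in controls. RNA degradation was read from Gapdh, as its 3′ minus its 5′ control probe set, which was 0.88, 0.45 and 2.34 in day 9 tumours 1, 2 and 3, against 0.58, 0.47, 0.28 and 0.48 at day 0. Without day 9 tumour 3 the count of 653 called genes became 36, so the number of list members called without that tumour stands beside each group below. With the Gapdh difference of each tumour as a covariate 533 genes were called, among them 10 of 12 interferon GTPases and 12 of 29 MAPK targets. Without the 9 tumours of the series in which it exceeds 2, 24 genes were called. Among those 24 were 0 of 12 interferon GTPases, 0 of 22 antiviral interferon genes and 2 of 29 MAPK targets. Limma called 0 when it was fitted to the 7 tumours alone (2481 at an unadjusted p under 0.05) and 1 when fitted to the 11 arrays of this spike-in level. In pieces of whole tumour, a change in the number of cells of a type and a change in RNA per cell cannot be told apart. Skeletal muscle genes also separated that tumour, with a mean level of 5.55, 6.39 and 8.21 at day 9, against 5.52, 5.56, 5.75 and 5.59 at day 0. Pigment cell identity was checked against 16 tested melanocyte genes, of which 0 were called. The lineage factor Sox10 measured 10.95, 10.20 and 10.08 at day 9, against 10.12, 9.85, 10.61 and 10.46 at day 0. Mitf, which drives pigment cell differentiation, measured 7.84, 8.28 and 9.00 at day 9, against 7.83, 8.06, 7.80 and 7.24 at day 0. The pigment genes Pmel, Mlana, Tyrp1 and Dct averaged between 5.34 and 6.39 in either group, and tyrosinase, Tyr, lay under the filter with means of 4.92 at day 9 and 5.15 at day 0. Sox10 and Mitf were thus expressed in every tumour, and pigment genes were near the filter or under it. Which cells of the pieces carry the Sox10 and Mitf RNA was not tested.

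Interferon-induced genes were the group with the most members called higher at day 9. All 12 of the interferon GTPases tested, of 19 listed, were higher, against 2.65% of all genes, with a median difference of 2.32. They comprise guanylate-binding proteins (Gbp2, Gbp3, Gbp6, Gbp7, Gbp8) and immunity-related GTPases (Irgm1, Irgm2, Igtp, Iigp1, Ifi47), which defend cells against microbes inside them, and the antiviral Mx1 and Mx2. Gbp3 measured 11.48, 11.46 and 11.72 at day 9, against 8.02, 10.72, 8.74 and 9.33 at day 0, a difference of 2.35 ± 0.45 (SE, adjusted p = 0.00283). Gbp7 measured 11.68, 11.83 and 11.87 at day 9, against 9.24, 11.03, 9.55 and 10.25 at day 0 (1.77 ± 0.32, adjusted p = 0.00157). Irgm2 measured 11.18, 11.11 and 10.86 at day 9, against 6.81, 9.93, 7.86 and 9.04 at day 0 (2.64 ± 0.50, adjusted p = 0.00273). In all of these the day 9 tumours lay close together and above the day 0 tumours, which spread more widely and of which day 0 tumour 2 was the highest. The promoters of these GTPases and of the chemokine gene Cxcl10 are shown because their genes kept a call with any one of the 7 tumours left out and each holds a match to the interferon-stimulated response element. They are RefSeq windows of 300 bases around the annotated start on GRCm38.p6, read 5′ to 3′ on the gene's strand. Capitals mark matches to the response element, a pair of GAAA letters with any 2 bases between them, and to the gamma-activated site, TTCNNNGAA, on either strand.
Gbp3 (chr3:142559794-142560093, plus strand): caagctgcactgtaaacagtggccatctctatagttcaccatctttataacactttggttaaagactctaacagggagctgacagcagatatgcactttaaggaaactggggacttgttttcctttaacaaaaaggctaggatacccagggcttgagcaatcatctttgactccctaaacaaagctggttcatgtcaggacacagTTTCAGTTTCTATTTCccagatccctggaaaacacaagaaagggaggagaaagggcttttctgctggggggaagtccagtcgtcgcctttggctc
Gbp7 (chr3:142530086-142530385, plus strand): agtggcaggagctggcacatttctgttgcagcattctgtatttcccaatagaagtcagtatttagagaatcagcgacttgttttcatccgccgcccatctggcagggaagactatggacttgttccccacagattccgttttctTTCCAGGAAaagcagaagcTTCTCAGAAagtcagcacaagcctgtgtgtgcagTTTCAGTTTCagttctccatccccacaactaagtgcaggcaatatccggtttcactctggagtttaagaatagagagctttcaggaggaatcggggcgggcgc
Irgm2 (chr11:58214727-58215026, plus strand): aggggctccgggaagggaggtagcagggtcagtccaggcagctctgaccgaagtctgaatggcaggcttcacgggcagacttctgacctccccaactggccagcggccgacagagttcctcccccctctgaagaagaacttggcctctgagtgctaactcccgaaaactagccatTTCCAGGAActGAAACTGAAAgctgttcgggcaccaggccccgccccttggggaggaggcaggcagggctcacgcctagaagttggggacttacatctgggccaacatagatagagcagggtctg
Cxcl10 (chr5:92348840-92349139, minus strand): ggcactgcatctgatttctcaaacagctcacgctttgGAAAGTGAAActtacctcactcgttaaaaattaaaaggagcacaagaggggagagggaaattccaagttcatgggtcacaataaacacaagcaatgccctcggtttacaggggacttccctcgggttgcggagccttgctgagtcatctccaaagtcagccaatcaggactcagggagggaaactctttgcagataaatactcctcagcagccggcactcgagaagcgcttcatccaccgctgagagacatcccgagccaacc

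The response element begins at -45 and, overlapping it, at -39 from the start in Gbp3, at -53 in Gbp7, at -64 in Irgm2 and at -213 in Cxcl10. Gbp7 holds gamma-activated sites at -106 and -87 and Irgm2 one at -75, next to its response element. Of 42 interferon genes called higher, 31 had a promoter in the RefSeq table, and 13 of those held the response element and 9 the gamma-activated site. Among all 32851 promoter windows of that length, 1131 (3.44%) held the response element and 2726 (8.3%) the gamma-activated site. A match is a description of these letters and no evidence of binding.

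The other GTPases differed in the same direction. Gbp6 measured 11.46, 11.75 and 11.69 at day 9, against 6.71, 9.50, 6.96 and 9.66 at day 0 (3.43 ± 0.74, adjusted p = 0.00768). Gbp2 measured 12.91, 12.78 and 12.63 at day 9, against 8.44, 11.75, 9.95 and 11.41 at day 0 (2.39 ± 0.50, adjusted p = 0.00733). Gbp8, the least expressed at day 0, measured 7.75, 10.07 and 9.36 at day 9, against 4.76, 6.78, 4.69 and 5.69 at day 0 (3.58 ± 0.97, adjusted p = 0.0273). Its day 0 values reach under the filter, so the pseudocount shrinks its difference. Ifi47 differed by 2.19 ± 0.47, Igtp by 2.28 ± 0.55, Irgm1 by 1.94 ± 0.47 and Iigp1 by 2.30 ± 0.69 (adjusted p = 0.00752, 0.0147, 0.0139 and 0.0487). Groups overlapped in Mx1 (8.57, 9.39 and 9.47 at day 9, against 6.21, 9.09, 6.66 and 5.23 at day 0), through day 0 tumour 2, and in Mx2 (1.11, adjusted p = 0.0199). Day 0 tumour 2 was the day 0 tumour nearest to day 9 in 11 of the 12 genes. Gbp genes are close paralogs, and their probe sets may share signal. When day 9 tumour 3 was left out, 3 of the 12 were called (Gbp3, Gbp7 and Irgm2) and the other 9 had adjusted p up to 0.314. All 12 were called without day 0 tumour 2. The count was 6 without day 0 tumour 1, 10 without day 0 tumour 3, 8 without day 0 tumour 4, 11 without day 9 tumour 1 and 9 without day 9 tumour 2. Day 0 tumours 3 and 4 carry 4-digit numbers in their titles. Without these tumours together the count was 4, at a median of 2.23.

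Of 22 antiviral interferon genes 13 were higher, against 2.65% of all genes, and 0 lower, with a median of 1.62. But the day 9 values cleared all day 0 values in only 3, against 9.25% of all genes. Ifit3, which encodes an RNA-binding antiviral protein, measured 12.17, 11.94 and 12.71 at day 9, against 7.85, 11.75, 9.90 and 8.20 at day 0 (2.85 ± 0.65, adjusted p = 0.0109). Ifit1 measured 10.67, 10.89 and 12.09 at day 9, against 7.47, 10.93, 8.66 and 7.49 at day 0 (2.58 ± 0.58, adjusted p = 0.00994) and overlapped between groups through day 0 tumour 2. The same tumour was nearest to day 9 in all 13 called genes. Parp14, an ADP-ribosyltransferase, measured 10.03, 10.27 and 10.35 at day 9, against 8.14, 9.80, 8.34 and 8.77 at day 0 (1.45 ± 0.28, adjusted p = 0.00363), with no overlap. The RNA sensor gene Ifih1 differed by 1.70 ± 0.40, Oasl2 by 2.11 ± 0.51 and Xaf1 by 1.96 ± 0.40 (adjusted p = 0.0131, 0.0147 and 0.00522). Another probe set of Xaf1 differed by 0.60, and with its probe sets averaged the gene was not called (limma adjusted p = 0.132). None of the 22 was called without day 9 tumour 3 (adjusted p of the 13 from 0.0538 to 0.283, median 1.42). Leaving out day 0 tumour 1 or day 0 tumour 4 gave 3, and leaving out day 0 tumour 2 gave 20. Leaving out day 0 tumours 3 and 4 together gave 0, at a median of 1.1.

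Among 19 genes of interferon signalling 4 were higher, against 2.65% of all genes, and 0 lower, with a median of 0.33. Stat2, a signal transducer of type I interferons, measured 7.56, 7.65 and 7.68 at day 9, against 5.90, 7.34, 6.29 and 6.00 at day 0 (1.25 ± 0.28, adjusted p = 0.00994), with every day 9 value above every day 0 value. Irf1, a transcription factor induced by interferon gamma, measured 10.58, 10.89 and 10.35 at day 9, against 9.10, 9.65, 8.64 and 10.06 at day 0 (1.24 ± 0.36, adjusted p = 0.0376), also with no overlap. Irf7 differed by 2.02 ± 0.53 and Irf9 by 0.76 ± 0.19 (adjusted p = 0.0237 and 0.0182), and Irf7 overlapped through day 0 tumour 2. For the ligand itself, Ifng measured 5.61, 7.20 and 5.71 at day 9, against 4.72, 5.55, 4.71 and 5.08 at day 0 (1.16 ± 0.50, adjusted p = 0.17), not called and close to the filter. Of its receptor chains, Ifngr1 was at 0.55 (adjusted p = 0.0713) and Ifngr2 at -1.0 (adjusted p = 0.0574), neither called. None of the 4 was called without day 9 tumour 3 (adjusted p 0.0933 to 0.272), and 1 of the 19 was without day 0 tumour 1. Without day 0 tumours 3 and 4 together 0 of the 19 were, at a median of 0.18.

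Genes that load and display peptides on MHC class I were higher in 9 of 14, against 2.65% of all genes, and lower in 0. Their median was 1.08, and in 7 of the 14 every day 9 value lay above every day 0 value, against 9.25% of all genes. B2m, the light chain shared by all class I molecules, measured 13.60, 13.85 and 13.94 at day 9, against 12.70, 13.46, 12.50 and 13.11 at day 0 (0.86 ± 0.16, adjusted p = 0.00273). The heavy chain gene H2-K1 measured 13.47, 13.60 and 13.33 at day 9, against 12.31, 13.08, 11.89 and 12.54 at day 0 (1.01 ± 0.21, adjusted p = 0.00626) and H2-D1 differed by 0.88 ± 0.19 (adjusted p = 0.0086). These heavy chains are so alike that a probe set may read both. Nlrc5, the transcriptional activator of class I genes, showed the widest difference of the group, with 9.77, 10.26 and 10.18 at day 9, against 6.62, 8.73, 6.68 and 8.86 at day 0 (2.35 ± 0.55, adjusted p = 0.013). The immunoproteasome subunits Psmb8 and Psmb9 differed by 1.61 ± 0.42 and 1.85 ± 0.48, and the peptide transporter gene Tap1 by 1.54 ± 0.46 (adjusted p = 0.0226, 0.0209 and 0.0454). With day 9 tumour 3 left out only H2-K1 and H2-D1 were called (adjusted p of the 9 up to 0.25, median 1.29). The count was 3 without day 0 tumour 1, 4 without day 0 tumour 3 or day 9 tumour 2, 6 without day 0 tumour 4 and 13 without day 0 tumour 2. It was 0 without day 0 tumours 3 and 4 together, at a median of 0.84. Of 10 class II genes 1 was called higher, the protease gene Ctss, against 2.65% of all genes, and 8 differences were positive, at a median of 0.83. The call of Ctss was lost without day 9 tumour 3 or day 0 tumour 4. The class II chain gene H2-Aa measured 11.14, 13.03 and 12.96 at day 9, against 12.15, 10.66, 9.87 and 11.41 at day 0 (1.35 ± 0.75, adjusted p = 0.299), with day 9 tumour 1 below 2 of the day 0 tumours. Cd74, the invariant chain, was at 0.97 (adjusted p = 0.437) and Ciita, the class II activator, at -0.02. Cd274, which encodes the checkpoint ligand PD-L1, measured 8.50, 9.32 and 8.34 at day 9, against 7.43, 7.97, 6.07 and 7.63 at day 0 (1.44 ± 0.44, adjusted p = 0.0488), with no overlap. Its call was lost without any one of the 7 tumours other than day 0 tumour 2 (adjusted p = 0.175 without day 9 tumour 3).

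Interferon-induced chemokine genes were higher in 4 of 15, against 2.65% of all genes, and lower in 0, with a median of 1.12. Cxcl9, which attracts T cells through Cxcr3, measured 11.17, 11.65 and 11.45 at day 9, against 5.87, 8.56, 6.45 and 9.52 at day 0 (3.82 ± 1.03, adjusted p = 0.0257), the second largest rise of the called genes without overlap. Cxcl10, a ligand of the same receptor, measured 12.12, 12.18 and 10.83 at day 9, against 7.08, 10.85, 8.39 and 8.49 at day 0 (3.00 ± 0.65, adjusted p = 0.00831), where day 9 tumour 3 and day 0 tumour 2 were level. Cxcl11, a ligand of that receptor too, was at 2.54 ± 0.82 and not called (adjusted p = 0.0642). Ccl5 measured 8.88, 10.16 and 9.95 at day 9, against 6.80, 8.75, 6.51 and 7.21 at day 0 (2.35 ± 0.66, adjusted p = 0.033), and Ccl8 differed by 1.45 ± 0.40 (adjusted p = 0.0308), both with no overlap. Cxcl10 alone was called without day 9 tumour 3 (adjusted p of the 4 up to 0.237). There was also 1 without day 0 tumour 1, and 2 without day 0 tumour 3 or 4 or day 9 tumour 1 or 2. Without day 0 tumours 3 and 4 together there were 0, at a median of 0.81.

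**Figure D1:**
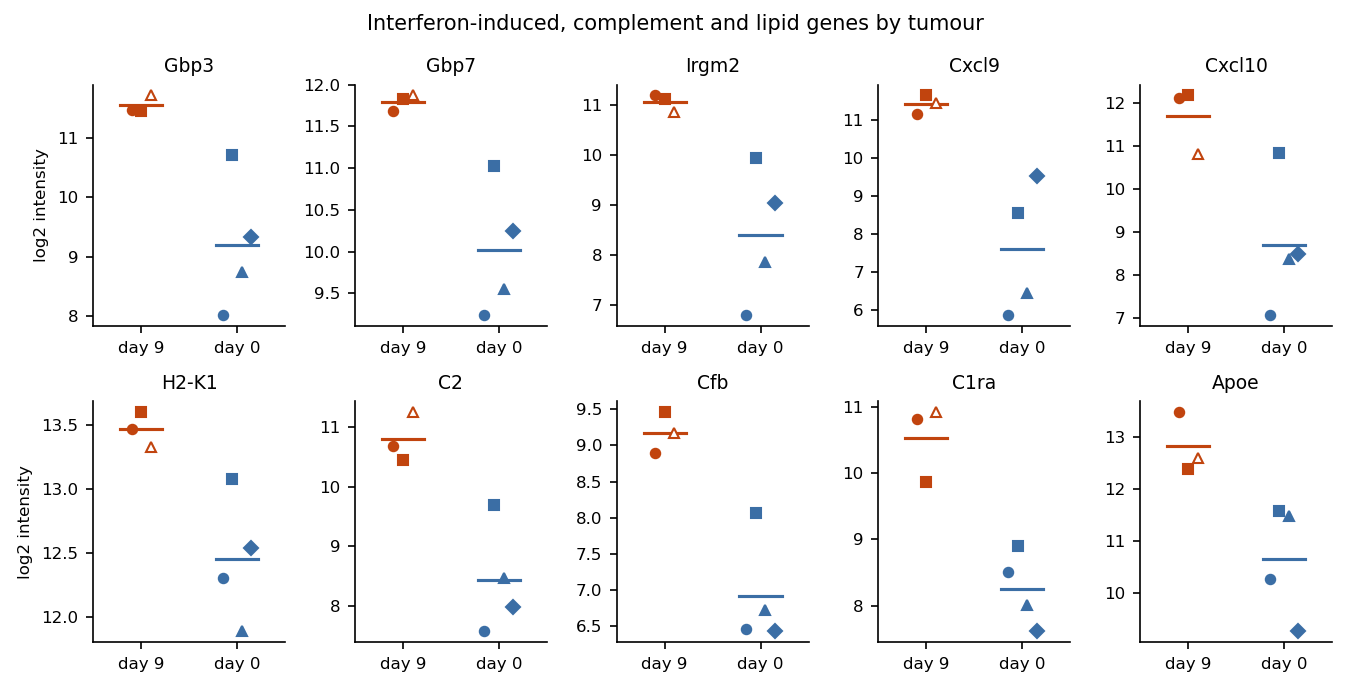
Log2 intensity of 10 immune genes in each tumour, with day 9 (orange, left) beside day 0 (blue, right), a bar for each group mean, markers for replicate numbers and an open triangle for day 9 tumour 3. In Gbp3 the day 9 tumours lie at 11.46 to 11.72 and the day 0 tumours at 8.02 to 10.72, and day 0 tumour 2 is the highest day 0 value in most of the interferon panels.

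Complement genes were higher in 5 of 12, against 2.65% of all genes, and lower in 0, with a median of 1.00. The classical pathway proteases are C1r, which is activated once C1q binds and cleaves C1s, and C1s, which cleaves C4 and C2. C1ra measured 10.82, 9.86 and 10.92 at day 9, against 8.51, 8.90, 8.01 and 7.61 at day 0. C1s1 measured 10.53, 9.70 and 11.52 at day 9, against 8.05, 8.34, 7.60 and 7.85 at day 0, a difference of 2.62 ± 0.45 (adjusted p = 0.00116), with no overlap in either. C2 measured 10.68, 10.46 and 11.26 at day 9, against 7.57, 9.70, 8.47 and 7.98 at day 0. Cfb, its counterpart in the alternative pathway, measured 8.89, 9.46 and 9.17 at day 9, against 6.47, 8.07, 6.72 and 6.43 at day 0, again with no overlap. Serping1, the inhibitor of C1, measured 11.07, 10.56 and 11.70 at day 9, against 9.34, 9.86, 9.15 and 8.48 at day 0 (1.90 ± 0.43, adjusted p = 0.00994), with no overlap either. The recognition subunit itself was not called in any of its 3 chains, with C1qa at 0.04, C1qb at 0.97 and C1qc at 1.03 (adjusted p = 0.982, 0.163 and 0.0838). C1ra and C1s1 have near-identical mouse paralogs, so their probe sets may read more than 1 gene. Unlike the interferon groups, the complement calls mostly remained without day 9 tumour 3, where C1ra, C1s1, C2 and Cfb were called and Serping1 had an adjusted p of 0.156. That difference between groups of genes was not tested. The count over the 7 tumours left out in turn ran from 4 to 8. It was 3 without day 0 tumours 3 and 4 together, at a median of 0.75. List means of macrophage genes were 9.61 to 10.27 at day 9, against 8.65 to 9.68 at day 0, and those of T and NK cell genes 6.40 to 7.77 at day 9, against 5.74 to 6.80 at day 0, and their part in the interferon and complement differences was not tested.

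Of 21 macrophage genes 4 were higher, against 2.65% of all genes, and 0 lower, with a median of 0.80. Lyz2, the lysozyme of myeloid cells, measured 12.36, 12.86 and 12.66 at day 9, against 11.36, 11.92, 11.03 and 9.96 at day 0 (1.56 ± 0.33, adjusted p = 0.00744). Mpeg1, the pore-forming perforin-2 of phagocytes, measured 10.46, 11.36 and 11.90 at day 9, against 9.58, 9.88, 8.13 and 9.21 at day 0 (2.04 ± 0.48, adjusted p = 0.0131). Ctss, a lysosomal protease gene, measured 12.73, 13.27 and 13.01 at day 9, against 12.54, 12.51, 11.64 and 11.67 at day 0 (0.91 ± 0.22, adjusted p = 0.0133). None of them overlapped. Apoe, a lipid carrier also made by other cells, measured 13.48, 12.38 and 12.60 at day 9, against 10.27, 11.57, 11.48 and 9.26 at day 0 (2.17 ± 0.42, adjusted p = 0.00324), with no overlap. Csf1r, the receptor that defines the lineage, was at 0.84 and Cd68 at 0.80, neither called (adjusted p = 0.0718 and 0.203). The mean level of the list was 9.61, 10.27 and 9.90 at day 9, against 9.6, 9.68, 8.97 and 8.65 at day 0, so 1 day 9 tumour lay within the day 0 range. Apoe alone was called without day 9 tumour 3 (adjusted p of the 4 up to 0.194), and 3 to 5 were without any other single tumour. Without day 0 tumours 3 and 4 together 1 of the 21 was called, at a median of 0.21. Lyz1 and Lyz2 share most of their sequence, and Lyz1 was called too.

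Among 18 genes of T and NK cells 2 were higher, against 2.65% of all genes, and 0 lower, with a median of 0.82. The NK receptor gene Klrd1 measured 7.05, 9.08 and 8.71 at day 9, against 6.81, 6.93, 4.73 and 5.62 at day 0 (2.26 ± 0.65, adjusted p = 0.0388). Klrk1 measured 7.15, 9.14 and 8.95 at day 9, against 6.37, 7.70, 5.50 and 6.03 at day 0 (2.01 ± 0.60, adjusted p = 0.0463). In both, day 9 tumour 1 lay well below the other two day 9 tumours. Cd8a measured 5.67, 7.49 and 7.13 at day 9, against 5.05, 5.87, 4.97 and 5.04 at day 0, not called (adjusted p = 0.108). The T cell receptor gene Cd3e was at -0.07, and Gzmb, the killing protease granzyme B, at 0.82 (adjusted p = 0.516). The list mean was 6.40, 7.77 and 7.12 at day 9, against 6.22, 6.80, 5.74 and 6.20 at day 0. Neither Klrd1 nor Klrk1 was called without day 9 tumour 3 (adjusted p 0.277 and 0.322), without day 9 tumour 2, or without day 0 tumour 3 or 4, and Klrk1 also lost its call without day 0 tumour 1.

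Other cell types were read from their lists in the same way, where 4.56% of all genes were called in either direction. Keratinocyte genes had 0 of 15 called and a median of 1.04, with list means of 7.66, 9.59 and 8.67 at day 9, against 6.26, 6.25, 8.42 and 8.38 at day 0, so that levels varied within both groups. Mast cell genes had 0 of 9 called (6.23, 9.11 and 7.78 at day 9, against 6.70, 7.44, 7.45 and 7.45 at day 0), and neutrophil genes 0 of 10 (6.86, 7.14 and 8.03, against 7.56, 6.45, 6.56 and 7.39). Fibroblast and collagen genes had 0 of 18 called and a median of 0.23, and endothelial genes 0 of 15 and 0.06. Differences were positive in all 15 keratinocyte genes, 8 of 9 mast cell, 8 of 10 neutrophil, 13 of 18 fibroblast and collagen and 10 of 15 endothelial genes. The part of these cell types in the differences of other genes was not tested.

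**Figure D2:**
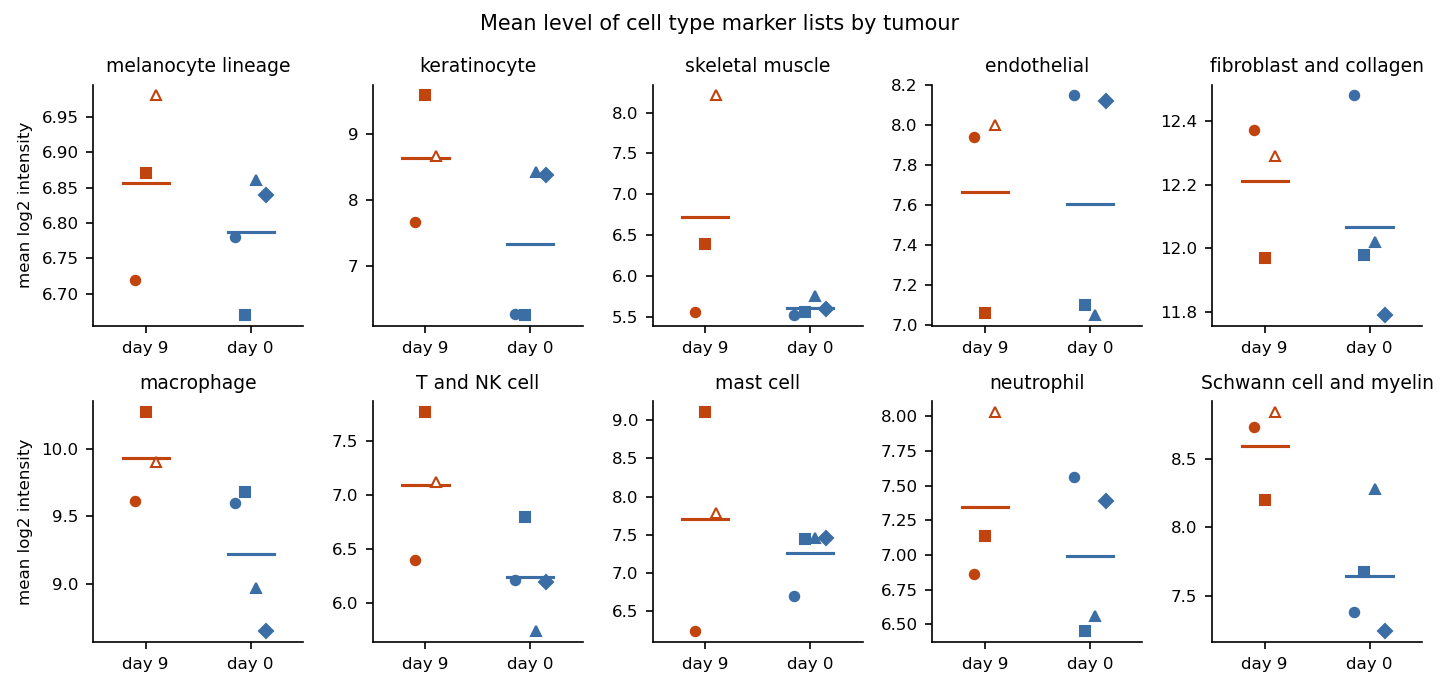
Mean log2 intensity of the tested genes of 10 cell type lists in each tumour, with day 9 (orange, left) beside day 0 (blue, right) and day 9 tumour 3 as an open triangle. The skeletal muscle list stands at 8.21 in day 9 tumour 3 and at 5.52 to 5.75 at day 0, whereas the fibroblast list lies between 11.79 and 12.48 in all 7 tumours.

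Transcriptional output of the MAPK pathway was lower at day 9, the comparison that bears on the pathway the transgene drives. Of 29 tested target genes 12 were lower, against 1.91% of all genes, and 0 higher. Altogether 28 of the 29 differences were negative, and the median was -0.96. All but Ccnd1 of the 12 had every day 9 value under every day 0 value, as had 246 of the 273 genes called lower over the whole array. Spred3 and Dusp5 alone were called without day 9 tumour 3, at a median of -0.80, and the other 10 had adjusted p up to 0.498. The count was 15 without day 9 tumour 2, 8 without day 9 tumour 1 and 9 without day 0 tumour 1 or 4. It was 13 without day 0 tumour 2 and 14 without day 0 tumour 3. Day 0 tumours 3 and 4 carry 4-digit numbers in their titles and the other 5 tumours 3-digit ones, and without these replicates 4 targets were called at a median of -0.97.

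The feedback phosphatase genes, whose products remove phosphates from ERK, included the gene of the widest difference, Dusp4. Dusp4 measured 7.16, 8.36 and 6.72 at day 9, against 10.47, 8.53, 9.20 and 9.63 at day 0 (-2.04 ± 0.49, adjusted p = 0.0133). Dusp5 measured 7.24, 8.10 and 7.03 at day 9, against 9.62, 8.71, 8.71 and 9.68 at day 0 (-1.72 ± 0.28, adjusted p = 0.000769). Dusp6 measured 9.66, 10.64 and 9.29 at day 9, against 11.04, 10.97, 10.91 and 11.39 at day 0 (-1.21 ± 0.27, adjusted p = 0.00888). The groups did not overlap in any of them, and day 9 tumour 2 was the highest day 9 tumour each time. It was the day 9 tumour nearest to day 0 in all 12 called target genes. Without day 9 tumour 3 the adjusted p was 0.197 for Dusp4, 0.0259 for Dusp5 and 0.19 for Dusp6.

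Sprouty and Spred genes, whose products block signalling between receptors and RAF, were also lower where called. Spred3 measured 6.18, 6.31 and 6.13 at day 9, against 8.51, 7.45, 7.59 and 8.61 at day 0 (-1.83 ± 0.24, adjusted p = 0.00011), and its adjusted p without day 9 tumour 3 was 0.00333. Spry4 measured 6.34, 6.99 and 6.36 at day 9, against 8.20, 7.66, 7.32 and 7.95 at day 0 (-1.22 ± 0.23, adjusted p = 0.00313). Neither overlapped between groups. Spry2 measured 7.93, 8.50 and 7.71 at day 9, against 9.51, 8.99, 9.04 and 9.24 at day 0 (-1.15 ± 0.23, adjusted p = 0.00465). Spred2 measured 8.09, 8.52 and 7.85 at day 9, against 9.23, 9.01, 9.16 and 9.23 at day 0 (-1.0 ± 0.23, adjusted p = 0.012). The day 9 values of Spred3 were close to the filter, so its difference is shrunk. Spred1 was at -0.68 ± 0.21 and not called (adjusted p = 0.0551). Without day 9 tumour 3 the adjusted p was 0.0573 for Spry4, 0.0946 for Spry2 and 0.183 for Spred2.

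Among the transcription factors downstream of ERK, Etv4 measured 6.99, 7.73 and 6.65 at day 9, against 7.99, 8.23, 8.32 and 8.33 at day 0 (-1.10 ± 0.21, adjusted p = 0.00273). Fosl1, an AP-1 subunit, measured 6.92, 7.97 and 6.23 at day 9, against 9.10, 8.51, 8.43 and 8.84 at day 0 (-1.68 ± 0.38, adjusted p = 0.0109). Etv5 was at -0.81 ± 0.31 and Myc at -0.71 ± 0.34, neither called (adjusted p = 0.119 and 0.226). The immediate early genes Egr1 and Fos, which answer within minutes to many stimuli and to handling, were not called either. Egr1 measured 9.79, 10.23 and 11.20 at day 9, against 11.37, 10.38, 10.22 and 11.00 at day 0 (adjusted p = 0.687) and Fos was at -0.11. Ccnd1, the cyclin that starts the cell cycle, measured 11.14, 12.35 and 10.90 at day 9, against 12.28, 12.36, 12.81 and 12.73 at day 0 (-1.08 ± 0.30, adjusted p = 0.0336), with day 9 tumour 2 inside the day 0 range. The urokinase receptor gene Plaur was at -1.35 ± 0.39 and the receptor gene Epha2 at -1.13 ± 0.28 (adjusted p = 0.0404 and 0.0158). Without day 9 tumour 3 the adjusted p was 0.0844 for Etv4, 0.204 for Fosl1, 0.376 for Ccnd1, 0.498 for Plaur and 0.194 for Epha2. Braf itself, by its brightest of 9 probe sets, measured 8.77, 8.52 and 9.10 at day 9, against 8.56, 8.41, 8.46 and 8.37 at day 0 (0.34 ± 0.13, adjusted p = 0.114). The 9 probe sets disagreed, with differences from -0.59 to 0.39 of which 5 were positive. Which of them detects the transgene is not known.

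**Figure D3:**
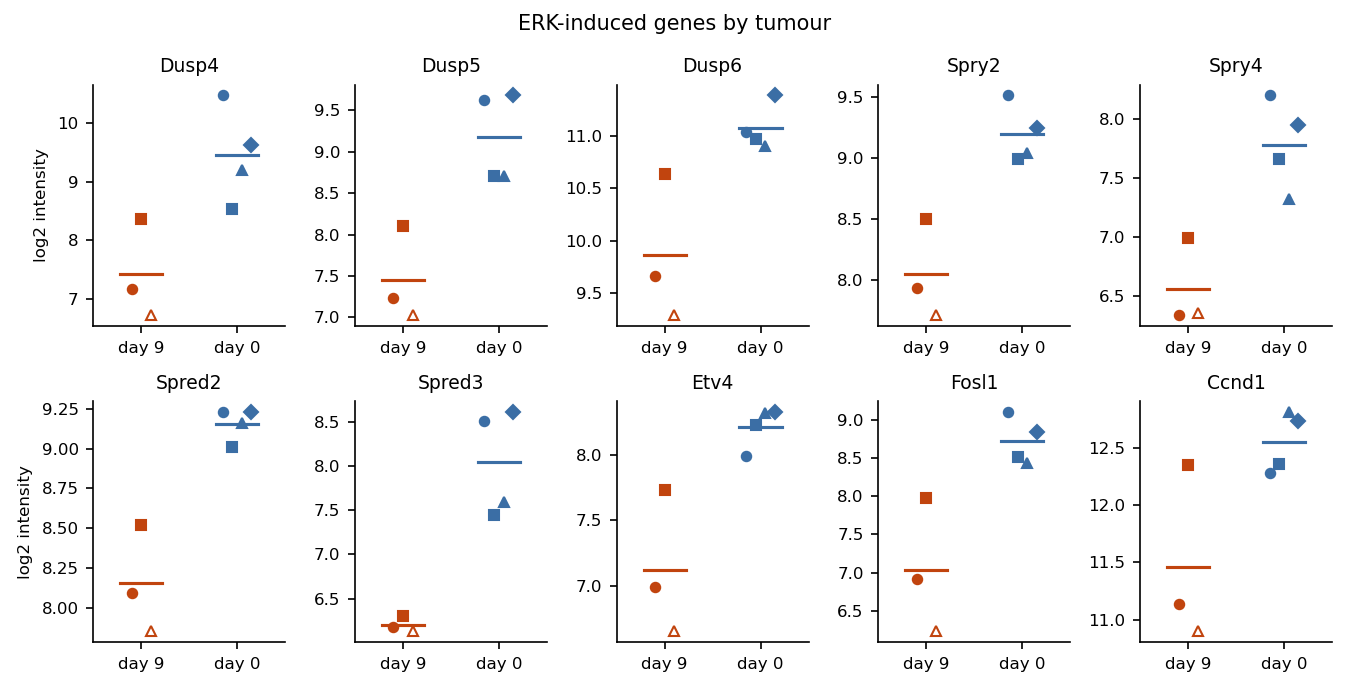
Log2 intensity of 10 MAPK target genes in each tumour, with day 9 (orange, left) beside day 0 (blue, right), a bar for each group mean and an open triangle for day 9 tumour 3. In Spred3 the day 9 tumours lie at 6.13 to 6.31 and the day 0 tumours at 7.45 to 8.61, and in every panel day 9 tumour 2 is the highest day 9 tumour.

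Growth factor ligand genes moved both ways, with 3 of 19 lower, 2 higher and a median of 0.24. Over all genes 1.91% were lower and 2.65% higher. Among the EGF receptor ligands, Ereg measured 7.56, 9.03 and 7.73 at day 9, against 10.99, 9.73, 9.47 and 10.41 at day 0 (-2.04 ± 0.56, adjusted p = 0.0309). Hbegf measured 8.60, 8.89 and 7.26 at day 9, against 10.45, 9.4, 9.68 and 10.64 at day 0 (-1.79 ± 0.41, adjusted p = 0.0119). Neither overlapped between groups. Vegfa, the main angiogenic factor, measured 7.11, 7.74 and 7.30 at day 9, against 8.89, 8.41, 8.09 and 8.73 at day 0 (-1.15 ± 0.32, adjusted p = 0.0317). Of the rising ligands, Gas6, which activates the Axl and Mertk receptors, measured 9.84, 9.13 and 10.19 at day 9, against 7.95, 8.44, 8.47 and 7.01 at day 0 (1.75 ± 0.48, adjusted p = 0.0306). Angpt1, the Tie2 ligand, was at 1.44 ± 0.38 (adjusted p = 0.0229). None of these 5 was called without day 9 tumour 3 (adjusted p 0.214 to 0.321) or without day 0 tumour 4, and 1 of the 19 was without day 0 tumour 1 or day 9 tumour 1. Of 21 genes in the list of receptor tyrosine kinases 0 were called, against 4.56% of all genes. Met was at -1.0, Egfr at 0.79, Erbb3 at 0.75, Axl at -0.35 and Pdgfra at 0.02 (adjusted p = 0.113, 0.239, 0.202, 0.257 and 0.98). Epha2, a receptor tyrosine kinase gene counted among the MAPK targets, was called lower (-1.13, adjusted p = 0.0158, and 0.194 without day 9 tumour 3). At an unadjusted p under 0.05 limma gave 3105 genes over the whole array.

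In the list of BMP and TGF-beta genes 3 of 16 were lower, against 1.91% of all genes, and 0 higher, with a median of -0.54. The ligand gene Bmp2 measured 8.64, 9.50 and 7.34 at day 9, against 11.36, 10.39, 10.24 and 10.28 at day 0 (-2.07 ± 0.54, adjusted p = 0.0229), with day 0 tumour 1 highest and no overlap. Bmp7 was at -0.66 ± 0.15 and Smad7, the inhibitory SMAD, at -0.71 ± 0.17 (adjusted p = 0.00994 and 0.013). The BMP antagonist gene Grem1 measured 9.90, 10.39 and 8.35 at day 9, against 13.38, 11.69, 10.59 and 12.03 at day 0 (-2.37 ± 0.89), a wide spread with an adjusted p of 0.11. None of the 16 was called without day 9 tumour 3 (adjusted p of the 3 from 0.119 to 0.326). In the list of invasion genes and metalloproteinases 3 of 16 were lower, against 1.91% of all genes, and 0 higher, with a median of -0.18. Those called (Plau, Plat and Plaur) are all of the plasminogen activator system, and the widest fall of the list, -2.73, was not called. The collagenase gene Mmp1b, which was not in the list, was called lower (-2.39, adjusted p = 0.0237, and 0.217 without day 9 tumour 3). Plau, urokinase, measured 5.09, 5.33 and 5.15 at day 9, against 6.17, 6.15, 6.07 and 5.74 at day 0 (-0.84 ± 0.13, adjusted p = 0.000752). These low values lie around the filter, do not overlap, and gave a call with any one tumour left out. Plat, the tissue-type activator, was at -0.99 ± 0.29 (adjusted p = 0.041), a call lost without day 9 tumour 3 (0.256).

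Of 16 glycolysis genes 3 were lower, against 1.91% of all genes, and 0 higher, with a median of -0.57. Pkm, pyruvate kinase, measured 11.32, 11.98 and 10.41 at day 9, against 12.45, 12.10, 12.12 and 12.26 at day 0 (-1.0 ± 0.25, adjusted p = 0.0158). Pgam1, phosphoglycerate mutase, measured 10.10, 11.13 and 9.85 at day 9, against 11.23, 11.29, 11.40 and 11.26 at day 0 (-0.93 ± 0.24, adjusted p = 0.0184). The hexokinase gene Hk1 measured 9.75, 10.32 and 8.66 at day 9, against 10.68, 10.36, 10.58 and 10.78 at day 0 (-1.02 ± 0.27, adjusted p = 0.025). Here day 9 tumour 3, the tumour of widest Gapdh difference, was lowest each time and day 9 tumour 2 lay just under the lowest day 0 tumour. Without day 9 tumour 3 the list had 0 called (adjusted p of the 3 from 0.296 to 0.455, median -0.39). Leaving out day 0 tumour 4 also gave 0, leaving out day 0 tumour 1 gave 1 and leaving out day 9 tumour 2 gave 7. Ldha was at -0.61 and the glucose transporter gene Slc2a1 at -0.90, neither called (adjusted p = 0.0716 and 0.214). Of 15 hypoxia genes Vegfa and P4ha1 (-1.22 ± 0.32, adjusted p = 0.0238) were lower and 0 higher, with a list median of -0.52. Of 17 ATF4 targets, with a median of -0.43, 0 were higher and 3 lower, namely Asns (-1.09 ± 0.32), Mthfd2 (-0.77 ± 0.22) and Chac1 (-0.69 ± 0.18), which belong to the amino acid and folate response to stress (adjusted p = 0.0415, 0.0375 and 0.0209). None of the listed hypoxia genes and listed ATF4 targets was called without day 9 tumour 3 (adjusted p of the 5 from 0.197 to 0.315). The same held without day 9 tumour 1 and without day 0 tumour 1 or 4.

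Cell division genes were not called. All 21 mitosis genes had negative differences at a median of -0.57, with list means of 7.31, 8.63 and 7.62 at day 9, against 7.83, 8.40, 8.73 and 8.68 at day 0, and 0 passed the test. Mki67, the proliferation marker, measured 9.37, 10.55 and 9.93 at day 9, against 9.62, 10.05, 10.48 and 10.60 at day 0 (-0.24 ± 0.43, adjusted p = 0.802), and the mitotic kinase gene Plk1 was at -1.0 ± 0.32 (adjusted p = 0.0639). Day 9 tumour 2 was within the day 0 range, and without it 5 mitosis genes and 5 of 23 DNA replication genes were called lower, against 0 of the 23 with it. Of 17 cell cycle inhibitors and G1 genes, with a median of -0.24, 1 was higher and 2 lower. For this and the lists that follow, the shares over all genes were 2.65% higher and 1.91% lower. Cdkn2b, which encodes p15, measured 8.55, 8.71 and 7.89 at day 9, against 9.21, 9.38, 9.69 and 9.36 at day 0 (-1.02 ± 0.26, adjusted p = 0.0182). Rb1, the cell cycle brake that cyclin D kinases inactivate, was at 0.53 ± 0.16 (adjusted p = 0.0442). Neither was called without day 9 tumour 3 (0.277 to 0.376 over the 3 called genes of the list). Of 15 PI3K and FOXO genes 1 was higher and 0 lower, with a median of 0.01. That gene, Pik3ip1, an inhibitor of PI3K that FOXO factors induce, measured 9.37, 8.67 and 9.30 at day 9, against 6.86, 8.01, 8.02 and 7.45 at day 0 (1.53 ± 0.32, adjusted p = 0.00744), with no overlap. Its adjusted p was 0.0875 without day 9 tumour 3. Of 15 p53 targets 2 were higher and 0 lower, but 11 of the 15 differences were negative, at a median of -0.37. Those called, Sesn1 and Fas, differed by 1.13 ± 0.27 and 0.66 ± 0.18 (adjusted p = 0.013 and 0.0245). Of 19 lysosome genes 2 were higher and 0 lower, 7 differences were negative, and the median was 0.06. Those called, Ctsh and Lamp2, differed by 1.22 ± 0.30 and 0.61 ± 0.14 (adjusted p = 0.0151 and 0.0123). All 4 of these calls were lost without day 9 tumour 3 (0.19 to 0.264). Ctsl was at -0.70 ± 0.23 and Sesn2 at -1.06 ± 0.33, with every day 9 value under every day 0 value in both and neither called (adjusted p = 0.0683 and 0.0574).

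Schwann cell and myelin genes were higher in 5 of 17, against 2.65% of all genes, and lower in 0, with a median of 0.63. The potassium channel gene Kcna1 measured 12.16, 9.90 and 12.07 at day 9, against 7.14, 7.94, 9.14 and 5.56 at day 0 (3.93 ± 0.74, adjusted p = 0.00273), the largest rise among called genes without overlap. Mal, a proteolipid of myelinating cells, measured 9.69, 7.68 and 9.57 at day 9, against 5.06, 5.83, 6.79 and 5.28 at day 0 (3.24 ± 0.71, adjusted p = 0.00879). The sodium channel gene Scn7a measured 9.98, 8.58 and 10.30 at day 9, against 6.10, 7.90, 8.41 and 6.23 at day 0 (2.46 ± 0.59, adjusted p = 0.0138). Day 9 tumour 2 was the lowest day 9 tumour in each of these, and the groups did not overlap. Cnp differed by 1.29 ± 0.34 and Cdh19 by 1.31 ± 0.40 (adjusted p = 0.0226 and 0.0497). Cnp was not called with its probe sets averaged (limma adjusted p = 0.0758), and another probe set of Mal differed by only 0.67. The myelin protein gene Mbp was at 1.03, S100b at 1.82 and Ngfr at 0.95, none called (adjusted p = 0.596, 0.0628 and 0.131). None of the 17 was called without day 9 tumour 3 (adjusted p of the 5 from 0.0538 to 0.507, median 0.56), and 2 were without day 0 tumour 1, day 0 tumour 4 or day 9 tumour 1. Schwann cells and melanocytes share the neural crest lineage, and which cells carry these RNAs was not tested. Of 13 lipid genes 3 were higher and 0 lower, with a median of 0.90, namely Apoe, the cholesterol exporter Abca1 (0.90 ± 0.23, adjusted p = 0.0207) and lipoprotein lipase, Lpl. Lpl measured 10.49, 8.44 and 9.57 at day 9, against 8.26, 7.5, 7.95 and 6.04 at day 0 (2.06 ± 0.57, adjusted p = 0.032). Only Apoe was called without day 9 tumour 3 (up to 0.259), day 0 tumour 4 or day 9 tumour 1. With probe sets averaged per gene Abca1 and Lpl were not called (limma adjusted p = 0.255 and 0.0542).

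**Figure D4:**
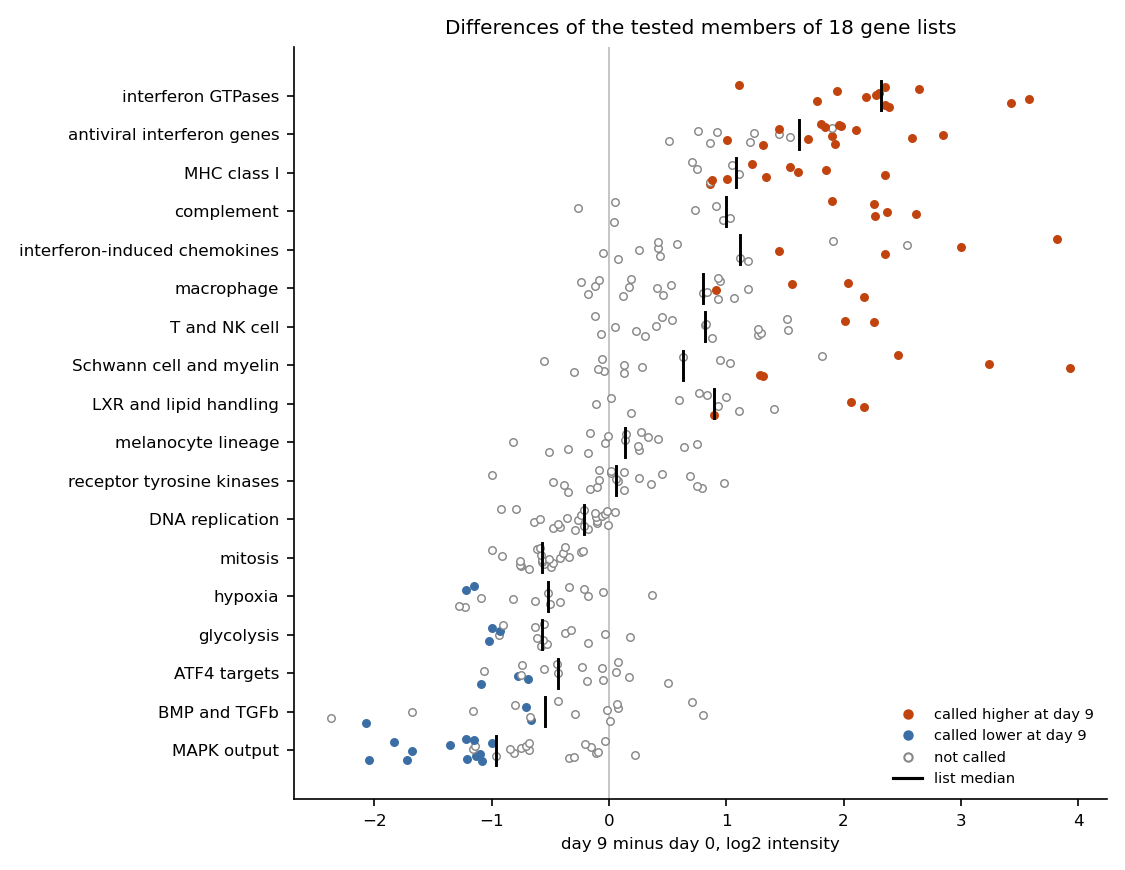
Log2 difference, day 9 minus day 0, of each tested member of 18 gene lists, filled red where called higher, filled blue where called lower and open where not called, with a bar at the median of each list. The interferon GTPases lie between 1.11 and 3.58 and all are called, whereas in the MAPK output list 28 of 29 members lie under 0.

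Outside the lists above, the largest rises among called genes without overlap also held Gm4951, a gene of the interferon-inducible GTPase family, with 10.21, 10.77 and 10.65 at day 9, against 5.73, 9.42, 6.70 and 7.90 at day 0 (3.10 ± 0.62, adjusted p = 0.00472). The lymphocyte gene Ms4a4b measured 7.14, 9.20 and 9.13 at day 9, against 5.62, 6.97, 4.56 and 5.08 at day 0 (2.93 ± 0.68, adjusted p = 0.0119). Acod1, which makes itaconate in activated macrophages, measured 9.10, 10.43 and 8.76 at day 9, against 6.48, 8.01, 5.74 and 6.64 at day 0 (2.71 ± 0.65, adjusted p = 0.0139). AW112010 was at 2.92 ± 0.69, Calhm6 at 2.90 ± 0.62 and the collagen gene Col20a1 at 2.77 ± 0.59 (adjusted p = 0.0131, 0.00744 and 0.00744). Among the largest falls, Nefl, a neurofilament subunit, measured 6.78, 8.04 and 5.8 at day 9, against 12.02, 8.66, 9.14 and 11.11 at day 0 (-3.36 ± 1.01, adjusted p = 0.0487). Cnr1, the cannabinoid receptor of neurons, measured 5.63, 6.87 and 6.03 at day 9, against 10.41, 8.04, 8.05 and 9.6 at day 0 (-2.85 ± 0.70, adjusted p = 0.0157). Slc9a2, a sodium-proton exchanger gene, measured 5.48, 6.20 and 5.02 at day 9, against 9.21, 7.37, 7.47 and 8.73 at day 0, where all day 9 values lay near or under the filter. The chromatin gene Hmga2, expressed in embryos and tumours, measured 8.93, 11.24 and 8.42 at day 9, against 11.88, 12.25, 11.82 and 12.12 at day 0 (-2.48 ± 0.66, adjusted p = 0.0237, and 0.299 without day 9 tumour 3). It was the 1 gene called of 4 tested in a list of oncofetal genes, whose median was -0.33, against 1.91% of all genes lower. The others, Arid3a, Igf2bp1 and Igf2bp3, were at -0.39, -0.26 and -0.14 and not called (adjusted p = 0.118, 0.328 and 0.576). The collagenase gene Mmp1b was at -2.39 ± 0.63, Prkg2 at -2.27 ± 0.59, the urea transporter gene Slc14a1 at -2.26 ± 0.50, Crabp1 at -2.20 ± 0.61 and Mmd at -2.19 ± 0.38 (adjusted p = 0.0237, 0.0213, 0.00883, 0.032 and 0.00134). Of these 15 genes Slc9a2 and Mmd were also called without day 9 tumour 3 (adjusted p = 0.0259 and 0.0317), where the other 13 had adjusted p from 0.0538 to 0.36.

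Of the 653 genes, 34 stayed called with any one of the 7 tumours left out, 19 higher and 15 lower. Many of the 34 were not called without the 9 tumours of Gapdh difference over 2, at limma adjusted p from 0.055 to 0.091. The higher genes that lost their call were Gbp3, Gbp7, Irgm2, Cxcl10, Samhd1, C1s1, Tlr2, Nod1, Fgl2 and Art3. The lower genes that lost it were Dusp5, Slc9a2, Mmd, Ptprn, Tead4, Gpr149, Kcnk3 and Nptx2. Among the 19 were the interferon-induced Gbp3, Gbp7, Irgm2, Cxcl10 and Samhd1, the class I genes H2-K1 and H2-D1, complement C1ra, C1s1, C2 and Cfb, and the sensors Tlr2 and Nod1. Samhd1, which degrades the nucleotides that viruses need, measured 10.63, 11.30 and 10.63 at day 9, against 8.99, 10.21, 8.61 and 9.28 at day 0 (1.58 ± 0.30, adjusted p = 0.00313). Casp4, the inflammatory caspase that senses lipopolysaccharide, measured 8.97, 8.93 and 9.24 at day 9, against 7.85, 8.11, 7.63 and 7.76 at day 0 (1.21 ± 0.19, adjusted p = 0.000752), a narrow spread in both groups. Tlr2 measured 9.32, 9.51 and 8.99 at day 9, against 8.77, 8.47, 7.55 and 8.06 at day 0 (1.06 ± 0.24, adjusted p = 0.00994). Nod1 measured 8.66, 8.78 and 8.49 at day 9, against 8.11, 7.81, 7.61 and 7.96 at day 0 (0.77 ± 0.17, adjusted p = 0.00879). The groups did not overlap in any of these. Fgl2 measured 10.97, 10.39 and 12.06 at day 9, against 8.57, 8.97, 9.28 and 7.0 at day 0 (2.69 ± 0.45, adjusted p = 0.00107). The other genes of the 19 were Apoe, Lyz1 (1.32 ± 0.23), Art3 (1.88 ± 0.32) and the selenium carrier gene Selenop (1.26 ± 0.22). Among the 15 lower genes, beside Spred3, Dusp5, Plau and Slc9a2, the kinase gene Prkcb measured 7.47, 8.25 and 7.86 at day 9, against 9.94, 9.98, 9.6 and 9.18 at day 0 (-1.82 ± 0.29, adjusted p = 0.000752). Peak1, a scaffold pseudokinase gene, measured 9.21, 9.55 and 9.72 at day 9, against 11.27, 10.42, 10.48 and 11.39 at day 0 (-1.40 ± 0.26, adjusted p = 0.00273). In both, the day 9 tumours lay well below all day 0 tumours. Ptprn, a protein of secretory granules, measured 6.73, 7.02 and 6.09 at day 9, against 9.05, 7.48, 7.77 and 8.94 at day 0 (-1.70 ± 0.27, adjusted p = 0.000769). Tead4, a DNA-binding partner of YAP, was the 1 gene of 13 called lower in the list of YAP and TAZ targets (median -0.03), against 1.91% of all genes. It measured 5.92, 5.96 and 5.79 at day 9, against 7.29, 6.23, 6.51 and 6.85 at day 0 (-0.83 ± 0.15, adjusted p = 0.00138). The rest were Mmd, Gpr149 (-1.93 ± 0.35), Gprc5a (-0.92 ± 0.13), Cars (-0.91 ± 0.15), Kcnk3 (-0.88 ± 0.15), Nptx2 (-0.85 ± 0.15) and Gm9899 (-0.77 ± 0.12).

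Arrays of the same spike-in level also hold single tumours of days 16, 29, 136 and 163, which place day 9 in time without a test. The mean level of the interferon GTPases was 10.81 at day 16, within the range of the day 9 tumours (10.80 to 11.13). It was 8.64, 8.76 and 8.76 at days 29, 136 and 163, within that of the day 0 tumours (7.36 to 10.07). The antiviral list stood at 9.62 at day 16, within the day 9 range (9.16 to 10.02), and at 7.39 at day 29, just under the day 0 range (7.42 to 9.68). The MAPK output list was at 8.11, 7.86, 8.40 and 8.07 on days 16, 29, 136 and 163, below every day 0 tumour (8.73 to 9.33). The Schwann cell list was at 9.02, 9.34, 9.29 and 9.77, above every day 0 tumour (7.24 to 8.28). These arrays differ in RNA quality, with a Gapdh difference of 0.98, 0.76, 2.41 and 4.41 on days 16, 29, 136 and 163, against 0.28 to 0.58 at day 0, and an actin difference of the same kind of 2.56, 2.11, 3.01 and 3.83, against 0.95 to 1.15 at day 0. Their skeletal muscle list means were 7.05, 5.73, 7.34 and 9.12, against 5.52 to 5.75 at day 0. The part of either in these levels was not tested. Each of the later days is 1 tumour, so no spread can be given.

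**Figure D5:**
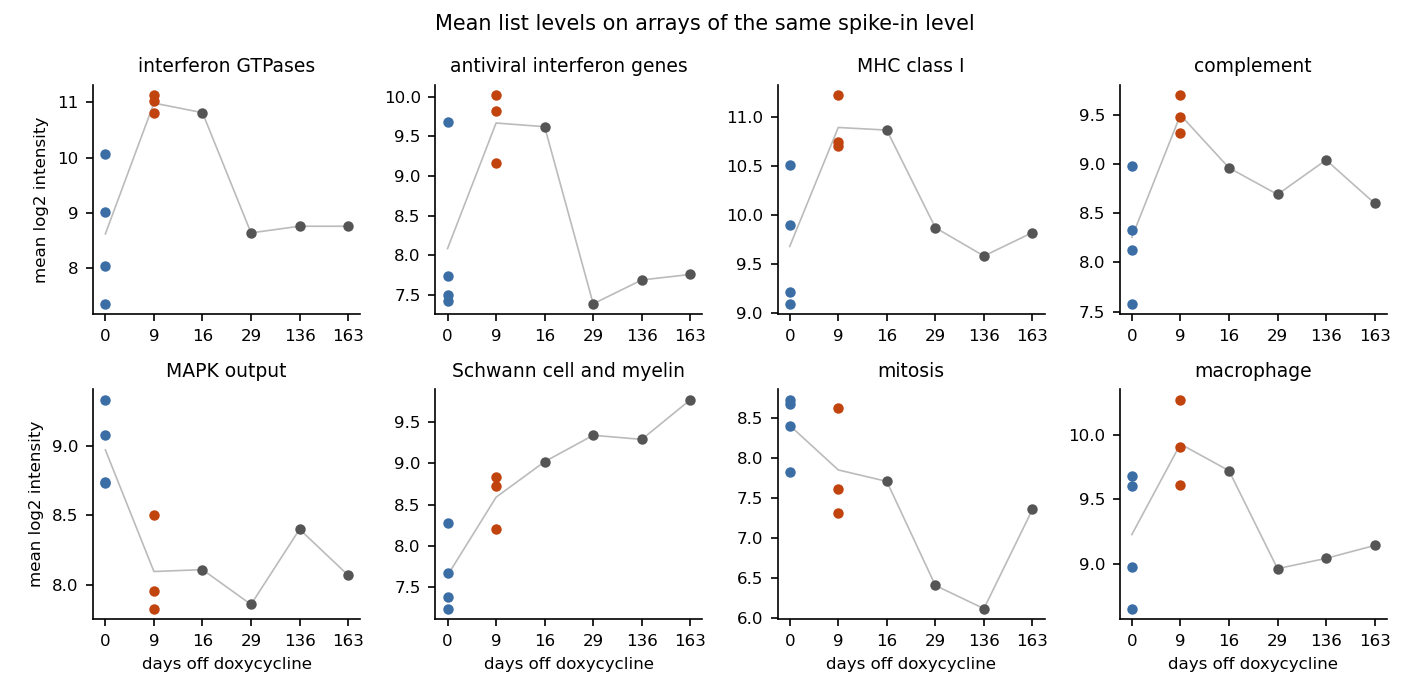
Mean log2 intensity of 8 gene lists in the 11 tumours whose arrays share a spike-in level, by days off doxycycline in categories (0, 9, 16, 29, 136, 163), with a line through the mean of each day. The MAPK output list is lower at every later day than in all 4 day 0 tumours, and the interferon GTPases stand at 10.81 on day 16 and 8.64 on day 29.

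Day 9 was also set against day 6, the nearest earlier time, with 4 tumours off doxycycline for 6 days. Limma called 8 genes higher (0.0559%) and 12 lower (0.0838%) at day 9, and 1608 (11.2%) passed an unadjusted p under 0.05. The mast cell tryptase gene Tpsb2 measured 6.32, 9.19 and 7.38 at day 9, against 10.01, 9.77, 10.20 and 10.01 at day 6 (-2.37 ± 0.48, adjusted p = 0.0362). Tlr8, an endosomal RNA sensor gene, measured 5.45, 5.86 and 5.69 at day 9, against 6.57, 6.79, 7.01 and 6.82 at day 6 (-1.13 ± 0.17, adjusted p = 0.0015). Ctps2, a CTP synthase gene, measured 9.16, 8.84 and 9.4 at day 9, against 7.55, 6.89, 7.43 and 7.68 at day 6 (1.75 ± 0.33, adjusted p = 0.0328). None of these groups overlapped. The interferon GTPases averaged 10.80, 11.13 and 11.02 at day 9 and between 9.30 and 10.88 at day 6, and MAPK output 7.96, 8.50 and 7.83 at day 9 and between 8.05 and 8.21 at day 6. The arrays of days 9 and 6 differ in spike-in level and in the number range of their titles, which cannot be told apart from the days. Leaving out 1 tumour at a time moved the 20 calls between 0 (without day 9 tumour 1) and 94 (without day 9 tumour 2). There was 1 without day 9 tumour 3 or day 6 tumour 3, 3 without day 6 tumour 4, 5 without day 6 tumour 1 and 7 without day 6 tumour 2.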

How the data were processed

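RNA of 41 iBIP mouse melanomas was measured on Affymetrix mouse arrays, per the labels' protocols. The authors deposited 1 intensity per probe set and array on a linear scale, and the submitters' processing notes name RMA and MAS5 but neither a version nor which of them gave these values. A genome build is not given in the sources used here, arrays have no sequencing depth, and their number limits the precision. From the deposited intensity, log2(value + 16) was computed and the arrays were quantile normalised, so every log2 value was derived from the authors' table. The pseudocount shrinks the differences of weakly expressed genes.

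Of 45101 probe sets, 34958 named 1 gene in GEO's platform annotation, 932 several and 9211 none. Only the first kind was used, of which 34754 matched the RefSeq gene table by Entrez identifier and 0 symbols changed. The probe set of highest mean was kept per gene (18193 genes), and the 14318 genes that exceeded the array's 40th percentile in 3 or more arrays were tested. All 41 tumours entered one limma fit (limma 3.58.1, R 4.3.3) with a mean per group of days off the drug, days 63 to 163 forming one group, and 32 residual and 2.58 prior degrees of freedom. Day 9 was compared with day 0 and with day 6, two-sided, with a call meaning p under 0.05 after Benjamini-Hochberg adjustment. All adjusted p-values are limma's. The procedure was also run on simulated data for all 41 arrays in their groups, with 14318 genes and 200 of them changed at day 9. It recovered 26.5% of genes changed 1.5-fold, 74.5% at 2-fold and 96% at 4-fold, and 5.36%, 5.1% and 5.42% of its calls were false. These shares hold for the simulated data, whose spread was estimated from all 41 arrays, and not for a fit of 3 against 4 tumours alone. They do not give the share of false calls among the tumours. In the tumours the groups could differ in spread, as in Irgm2, with a standard deviation of 0.17 at day 9 and 1.36 at day 0. Without day 9 tumour 3 only 36 genes were called.

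The tumours, the 44 gene lists and the tests were chosen with earlier results of these data known. Of the lists' 743 entries 675 were on the arrays. The text draws on a naming rule: 12 called genes each way of greatest change and no overlap, per list the 4 members of lowest p, and fixed genes of MAPK signalling, pigment cells, interferon and receptors, of which a few are not reported here. For day 6 it takes the 5 largest rises and falls. The rule gave 197 genes against day 0, and 73 further genes (other called list members, genes called with any tumour left out, and some defining genes that were not called) were named after their values were seen. Alternatives were another array scaling, other pseudocounts and filters, other probe set rules, a trend with robust variance, array weights, the compared groups alone, a 2-fold limit, the Gapdh gap as covariate or limit, subsets of arrays, and each tumour left out. Promoter windows came from RefSeq (GRCm38.p6), and motifs were searched on both strands. An ETS motif, ACCGGAAGT, was searched in the 12 MAPK targets called lower. Of these, 7 had a promoter in the RefSeq table and 0 held the motif, against 1.1% of all windows. Plots used matplotlib 3.10.9 (Python 3.11.15).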

Additional observations from a re-analysis of the deposited data

Results flagged for a closer look

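In the 4 day 0 tumours, 18 of 315 levels examined (5.71%; chance gives about 1 in 20) had a tumour far from the others by Dixon's criterion. Day 0 tumour 2 stood apart in 6 genes. It was high in the interferon genes Ifih1 (10.33), Oasl2 (9.90), Cmpk2 (7.72) and Calhm6 (7.07), in the mean of the antiviral list (9.68) and in Cd8a (5.87), and low in Axl (10.52). Day 0 tumour 1 stood apart in Bmp2 (11.36, high), Fabp4 (8.78, high), Igfbp5 (13.24, high) and Cma1 (7.27, low), and in the list means of BMP and TGF-beta genes (9.43), invasion genes (10.87), IGF binding proteins (11.23), mast cell genes (6.70) and the respiratory chain (10.72). Day 0 tumour 3 stood apart in the skin keratin Krt10 (10.89) and day 0 tumour 4 in Bop1 (8.70, in a narrow range).

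Between days 9 and 6 limma's test of the difference called the genes above and others. Ctps2 (1.75), the ribosomal protein gene Rpl27a (0.95), Zfp1 (0.74), Cdc42ep3 (0.71) and the repair nuclease gene Ercc5 (0.67) were higher at day 9. Tpsb2 (-2.37), Tlr8 (-1.13), Arhgdib (-1.10), Stk17b (-0.99) and Mfsd1 (-0.90) were lower at day 9. The adjusted p of these 10 ran from 0.0015 to 0.0465, and days 9 and 6 differ in spike-in level, which cannot be told apart from the days.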

How the results depend on the processing

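The count of 653 genes at day 9 against day 0 became 1346 over every probe set, 0 in a fit of the 7 compared tumours alone (2481 at an unadjusted p under 0.05), 1 among arrays of the same spike-in level, 24 without tumours of Gapdh gap over 2, 70 with 3-digit day 0 tumours only and 299 at a 2-fold limit. With each tumour left out it ran from 36 (without day 9 tumour 3) to 1236 (without day 9 tumour 2), with 181 without day 0 tumour 4, 278 without day 0 tumour 1 and 389 without day 9 tumour 1. The other settings gave 529 to 767. The share higher, 58.2%, was 42.9% over every probe set, 44.0% (320 of 727) with probe sets averaged per gene and 34.3% with 3-digit day 0 tumours. The 20 genes at day 9 against day 6 became 10 with arrays at a common median, 13 as deposited, 74 with probe sets averaged, 1157 over every probe set, 1056 with array weights, 0 in the compared groups alone (1632 at an unadjusted p under 0.05), 37 with the Gapdh gap covariate and 80 without gaps over 2, and 0 to 94 with each tumour left out, an alternative added after the data had been seen. With the gap as covariate 533 genes were called against day 0 (49.5% higher). All 36 genes called without day 9 tumour 3, all 24 without gaps over 2 and 67 of the 70 were among the 653. Over 270 named genes, 5232 of 6193 alternative results kept their side of the threshold, 877 lost a call, 84 gained one and 0 called genes changed sign. Uncalled genes could change sign, such as Fabp4 (1.12, and -0.07 without day 9 tumour 3). With probe sets averaged per gene 8 of the named genes lost their call, namely Abca1, Angpt1, Asns, Cnp, Lpl, Rb1, Tapbp and Xaf1. The causes were not tested. No paired analysis was possible because the labels give no replicate numbers, and those used here were assigned by accession.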
